A study of Rattus norvegicus with 33 samples.

Results

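Quinones are small membrane carriers that hand electrons from one respiratory enzyme to the next, and their bacterial synthesis is followed here in the cecal contents of hypertensive and control rats through 7 functional subsystems. A subsystem is a named set of genes that work together, and the 7 are every one of the 1057 subsystems in the deposited table whose name contains menaquinone or ubiquinone. The choice was by name alone, and no subsystem was named for plastoquinone. The samples were 10 SHR females and 7 SHR males against 9 WKY females and 7 WKY males, all aged 14 to 15 weeks, with 1 library of cecal DNA per rat. SHR is the inbred spontaneously hypertensive rat and WKY is the inbred Wistar Kyoto strain used as its control. The labels give no treatment, no altered gene and no cage, litter or sequencing batch. The reads are of DNA, so they measure which bacterial genes were present and their share of the reads, not their expression.

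Menaquinone, the bacterial form of vitamin K, serves respiration without oxygen and is made by many gut bacteria, among them Bacteroides. Most bacteria make it from chorismate through 1,4-dihydroxy-2-naphthoate, and another route passes through futalosine and 1,4-dihydroxy-6-naphthoate. Ubiquinone is made mainly by Proteobacteria such as Escherichia, also starting from chorismate, and carries electrons where oxygen or nitrate can be respired. The cytochrome bc1 complex takes electrons from the reduced quinone and passes them to cytochrome c. Other enzymes, the quinol oxidases and the anaerobic reductases, take them straight to oxygen, nitrate or fumarate.

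The reads assigned to functions ranged from 95952 to 489862 per library, with a median of 360615. SHR libraries were the shallower ones, with medians of 214911 in SHR females and 396240 in WKY females, and of 315719 in SHR males and 382975 in WKY males. Values below are normalized reads, the authors' counts divided by a size factor for depth, on which 1 read was worth 0.637 to 3.07 depending on the library. The label of cecal contents was checked against 11 common rodent gut genera, which were all found and together took 30.4% to 53.2% of assigned reads. No other gut site was compared, so this cannot tell cecal contents from other gut samples. Lengths and numbers of genes per subsystem are not given, so levels of different subsystems are in reads and cannot be read as gene copies.

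The quinone subsystems were small. Menaquinone biosynthesis through 1,4-dihydroxy-2-naphthoate was the most abundant with a mean of 106 normalized reads over the 33 rats, and it ranked 423 of 1057 by mean. Menaquinone and Phylloquinone Biosynthesis followed with 85.9 normalized reads. The subsystem called Ubiquinone Biosynthesis averaged 23.3, the cytochrome c reductase complexes 17.6, and a second version of the ubiquinone pathway, which the table calls "Ubiquinone biosynthesis -- gjo", 15.8. Menaquinone biosynthesis through futalosine averaged 8.84, and the subsystem for 1,4-dihydroxy-6-naphthoate 2.63. The last held 1 to 6 reads in every rat and was the only one of the 7 that missed a filter of 10 normalized reads in at least 7 rats.

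Some of the 7 varied far more between rats of a group than others. The coefficient of variation between rats, after counting noise was removed with edgeR's dispersion, was 73.6% for the futalosine route and 71.1% for the cytochrome c reductase. It was 42.0% for Ubiquinone Biosynthesis, 39.8% for its gjo version, 38.6% for Menaquinone and Phylloquinone Biosynthesis and 25.8% for the 2-naphthoate route. The median over all functions was 26.9%, so the 2-naphthoate route varied about as much as a typical function and the reductase and futalosine subsystems much more. The 6-naphthoate subsystem gave 10.5%, an estimate that rests on very few reads.

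**Figure D1:**
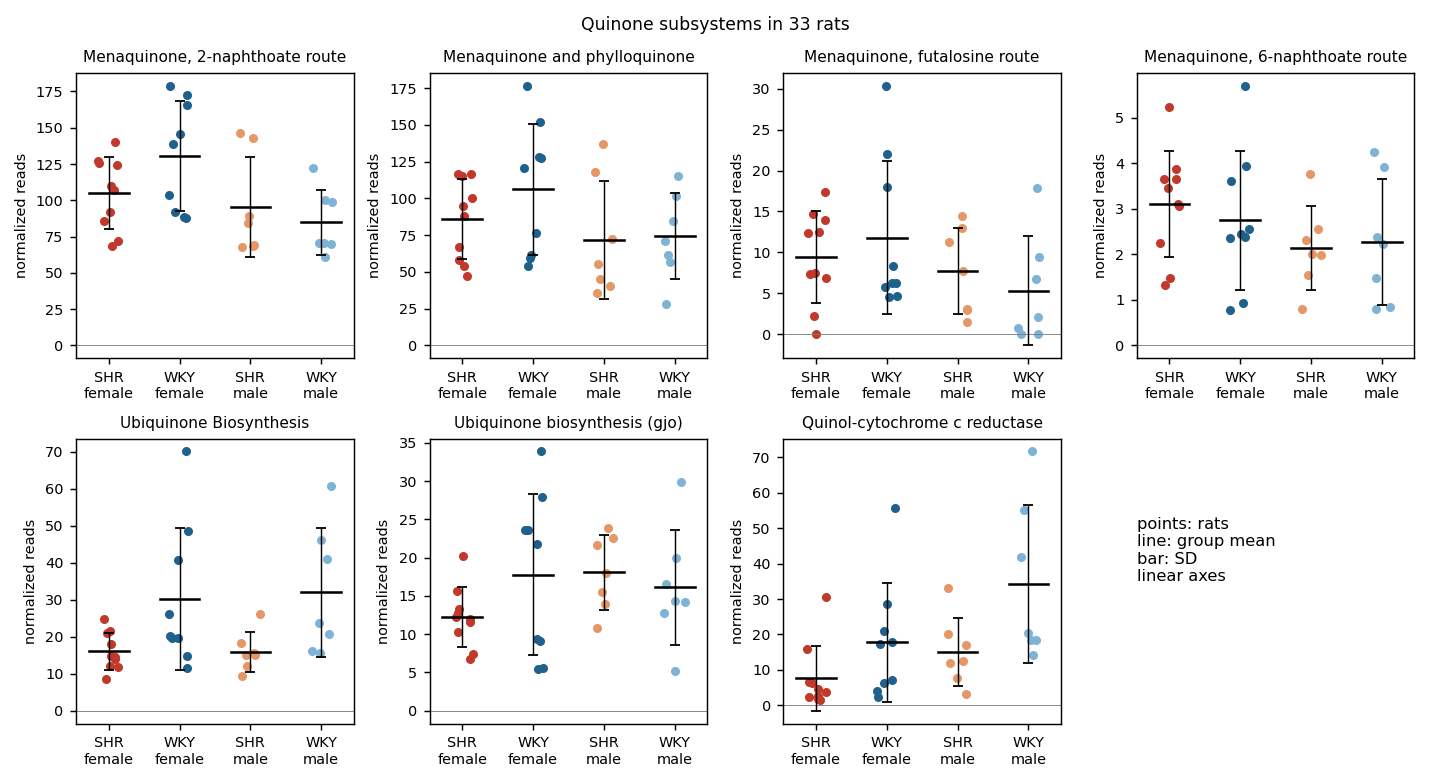
Normalized reads (vertical axis, linear) of the 7 quinone subsystems in each of 33 rats, by group. Points are rats, the thick line is the group mean and the bar is the SD. In Ubiquinone Biosynthesis the WKY rats reach 70.1 and the SHR rats 26.1, and the groups overlap in the lower values. In the menaquinone subsystems the groups overlap throughout.

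Menaquinone synthesis through 1,4-dihydroxy-2-naphthoate, the textbook route of Bacteroides and Escherichia, passed no test between the strains. It had 68.5, 108 and 140.0 normalized reads in SHR females as the lowest, median and highest value, against 87.7, 139 and 179 in WKY females. The same values were 68.2, 84.3 and 146 in SHR males, against 60.8, 70.9 and 122 in WKY males. The ranges of all 4 groups overlapped, and the WKY females held the highest values. Averaged over the sexes, the log2 fold change of SHR over WKY was -0.08, with a 95% interval of -0.36 to 0.21 (limma over all functions, Benjamini-Hochberg adjusted p = 0.752). It was -0.29 in females (limma adjusted p = 0.341) and 0.14 in males (limma adjusted p = 0.773).

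Menaquinone and Phylloquinone Biosynthesis, which groups the steps shared by menaquinone and the plant vitamin, followed the same picture. Its lowest, median and highest values were 47.5, 91.5 and 117 normalized reads in SHR females, against 54.3, 121 and 176 in WKY females. They were 35.7, 55.7 and 137 in SHR males, against 28.3, 71.1 and 115 in WKY males. Groups again overlapped, and the averaged log2 fold change of SHR over WKY was -0.18, with a 95% interval of -0.61 to 0.25 (limma adjusted p = 0.602). Over rats this subsystem and the 2-naphthoate route moved together, with a Pearson r of 0.87 and a Spearman rho of 0.88 (33 rats, group means removed, adjusted permutation p of 0.00015 each over 15 pairs of subsystems). The names overlap, and whether the same reads were counted in both is not given in the sources used here.

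Menaquinone Biosynthesis via Futalosine, a route first described in bacteria such as Streptomyces and Helicobacter, had reads in 30 of 33 rats. Its lowest, median and highest values were 0, 9.90 and 17.3 normalized reads in SHR females, against 4.56, 6.30 and 30.3 in WKY females. They were 1.55, 7.69 and 14.4 in SHR males, against 0, 2.13 and 17.9 in WKY males. No read was found in SHR female 9, the shallowest library, nor in WKY males 5 and 6. A count of 0 allows a share of up to 0.00313%, 0.000783% and 0.000965% of the function reads of these 3 libraries, counting error only. The averaged log2 fold change of SHR over WKY was 0.32, with a wide 95% interval of -0.55 to 1.18 (limma adjusted p = 0.635). It was -0.34 in females and 0.98 in males (limma adjusted p = 0.759 and 0.415).

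The subsystem of menaquinone biosynthesis from chorismate via 1,4-dihydroxy-6-naphthoate is named for a later compound of the futalosine route, so both names point to the same route. It had between 0.776 and 5.70 normalized reads in all 33 rats, also in those without a read of the futalosine subsystem. Its averaged log2 fold change of SHR over WKY was 0.09, with a 95% interval of -0.30 to 0.49 (limma adjusted p = 0.789). Set side by side, the 2-naphthoate route had more reads than the futalosine route in 33 of 33 rats. Summed over rats, it had 3778 reads and the futalosine subsystem 323, a ratio of 11.7. The 91 reads of the 6-naphthoate subsystem were left out of it. That ratio was 9.83 in SHR females and 11.04 in WKY females, and 12.7 in SHR males and 15.7 in WKY males. The 4 groups therefore shared the same order of routes, and the ratios were not tested.

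Ubiquinone Biosynthesis was lower in SHR than in WKY, in both sexes to a like degree, and it passed the test once the sexes were averaged. It had 8.62, 14.6 and 24.8 normalized reads in SHR females as the lowest, median and highest value, against 11.5, 20.2 and 70.1 in WKY females. The values were 9.28, 15.0 and 26.1 in SHR males, against 15.6, 23.7 and 60.9 in WKY males. The SHR rats were low and close together, while 6 WKY rats, 3 of each sex, stood at 40.7 to 70.1, above every SHR rat. The other 10 WKY rats lay between 11.5 and 26.1, within the SHR range or at its edge.

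Over both sexes the mean was 16.02 ± 4.99 normalized reads in SHR (SD, n = 17), against 30.97 ± 17.9 in WKY (SD, n = 16), and 15 of 17 SHR rats lay below the WKY median. The averaged log2 fold change was -0.78 ± 0.22 (SE), with a 95% interval of -1.22 to -0.33 (limma adjusted p = 0.0125). WKY thus carried 1.72 times the level of SHR on the log2(value + 1) scale, which understates the change of low functions. Within females the log2 fold change was -0.70 (limma adjusted p = 0.111) and within males -0.85 (limma adjusted p = 0.140), and neither passed alone. The averaged call was kept in each of 33 fits that left out 1 rat. Since the SHR libraries were shallower, the fit was repeated with log2 of total reads as a covariate, which gave -0.79 (limma adjusted p = 0.0246).

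The gjo version of the same pathway did not follow it. Its lowest, median and highest values were 6.75, 12.1 and 20.2 normalized reads in SHR females, against 5.44, 21.7 and 33.9 in WKY females. They were 10.8, 18.05 and 23.9 in SHR males, against 5.18, 14.3 and 29.9 in WKY males. SHR values lay inside the WKY range in both sexes, and the averaged log2 fold change was -0.03, with a 95% interval of -0.50 to 0.44 (limma adjusted p = 0.971). It was -0.31 in females and 0.25 in males (limma adjusted p = 0.557 and 0.742). The files do not list which genes separate the 2 ubiquinone subsystems. Over rats they had a Pearson r of 0.43 (permutation p = 0.0437, adjusted 0.0819) and a rho of 0.44 (permutation p = 0.0239, adjusted 0.0448).

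The Ubiquinone Menaquinone-cytochrome c reductase complexes, a name that covers the cytochrome bc1 complex and its relatives, were also lower in SHR on average. Which genes of this subsystem the reads came from is not known, as its genes are not listed. The subsystem had 1.56, 4.05 and 30.7 normalized reads in SHR females as the lowest, median and highest value, against 2.44, 17.3 and 55.8 in WKY females. In males the values were 3.20, 12.4 and 33.1 in SHR and 14.2, 20.5 and 71.7 in WKY. The groups overlapped in both sexes, and 8 of the 10 SHR females lay under 7 normalized reads, with SHR females 9 and 10 above them. In reads, the lowest library held 1 of 195700, a share of 0.000511% with an exact 95% binomial interval of 1.29e-05% to 0.00285%. The highest, WKY male 5, held 90 of 382975, a share of 0.0235% with an interval of 0.0189% to 0.0289%, so these extremes differed beyond counting error.

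Averaged over the sexes, the reductase had 10.7 ± 9.83 normalized reads in SHR (SD, n = 17), against 25.02 ± 20.5 in WKY (SD, n = 16), and 14 of 17 SHR rats lay below the WKY median. The log2 fold change was -1.14 ± 0.38 (SE), with a 95% interval of -1.91 to -0.37 (limma adjusted p = 0.0353). It was -1.14 in females (limma adjusted p = 0.140) and -1.15 in males (limma adjusted p = 0.265). With log2 of total reads as a covariate the averaged value was -1.73 (limma adjusted p = 0.00267). The averaged call was lost, at limma adjusted p-values of 0.0504 to 0.0704, when 1 of 8 rats was left out, namely SHR male 1 or 2, WKY female 1, 3, 8 or 9, or WKY male 5 or 6. In females alone it was gained without SHR female 9, at a log2 difference of -1.40 (limma adjusted p = 0.0447). That rat had the shallowest library and also the highest reductase value of the SHR females, 30.7 normalized reads.

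Of the 7 quinone subsystems, 2 were called lower and 0 higher in SHR over both sexes. Over all functions 17.2% were called in that comparison, 10.5% lower and 6.72% higher, so 2 of 7 is not read as particular to quinones. The median log2 fold change of the 7 was -0.08, and that of all functions -0.02. Within females 0 of the 7 were called by limma, against 8.42% of all functions, and 2 had an unadjusted p under 0.05, against 25% of all functions. There edgeR called 0 of the 7 and DESeq2 1, against 102 and 132 of 1024 functions. Within males 0 of the 7 were called by limma, edgeR or DESeq2, against 2.46% of all functions by limma, and 1 had an unadjusted p under 0.05, against 19.2% of all functions. At that level the average over the sexes held 2 of the 7 and 31.6% of all functions. The average over the sexes is made from the female and the male comparison, so it is not separate support for either. Those share no rat with each other, though they share the estimate of spread.

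**Figure D2:**
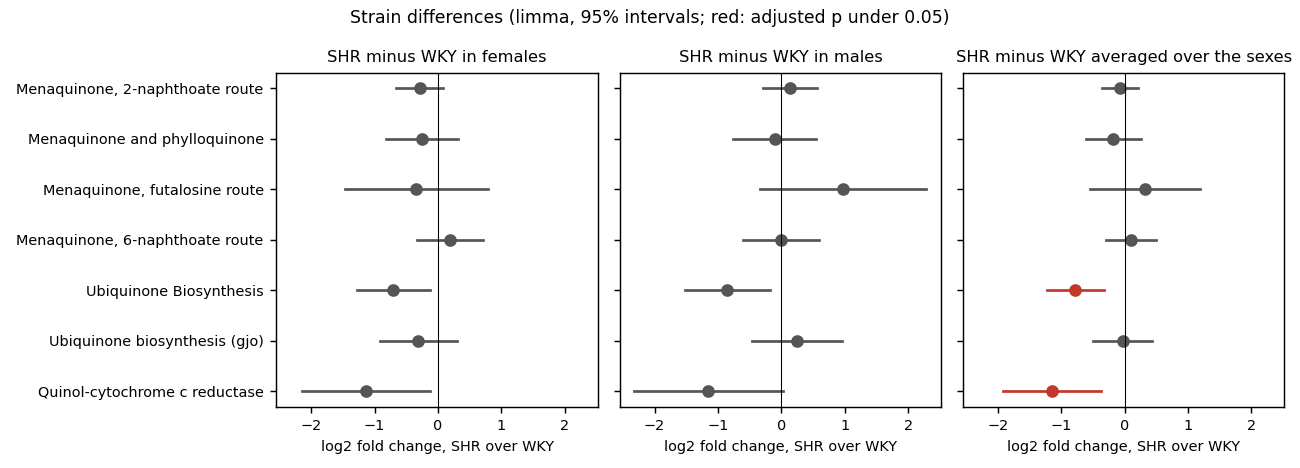
Log2 fold changes of SHR over WKY (horizontal axis) with 95% intervals from limma, in females, in males and averaged over the sexes. Red points passed the adjusted p threshold of 0.05. Ubiquinone Biosynthesis at -0.78 and the cytochrome c reductase at -1.14 passed in the average over the sexes, and the other 5 intervals there include 0.

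The strain difference of the reductase stood beside lower mean shares of Lactobacillus, a genus of lactic acid bacteria, in SHR. Lactobacillus took 3.41 ± 3.87% of assigned reads in SHR females (SD, n = 10) and 8.66 ± 6.85% in WKY females (SD, n = 9). It took 5.48 ± 3.85% in SHR males and 10.9 ± 7.92% in WKY males (SD, n = 7 each). Over 33 rats, with group means removed, the log2 share of Lactobacillus and the log2 level of the reductase had a Pearson r of 0.86 and a Spearman rho of 0.86. Both permutation p-values were 1e-05, the smallest that 100000 resamples can give, and the adjusted p for r was 0.00016 over 16 relations. Without the 2 rats farthest from the median Lactobacillus share, r was 0.82. These relations were computed after the calls of Ubiquinone Biosynthesis and the reductase were seen.

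Rats with more Lactobacillus than their group's mean thus tended to hold more reductase reads. The highest reductase values of SHR females and WKY females, 30.7 and 55.8 normalized reads, fell in the rats with the highest Lactobacillus shares of their groups, 13.2% and 22.7%, and so did that of SHR males, 33.1 normalized reads at 11.2%. In WKY males it did not, since male 5 had the highest reductase value, 71.7 at 15.6% Lactobacillus, and male 4 the highest share, 26.2% with 41.8 normalized reads. With the log2 Lactobacillus share as a covariate, the strain difference of the reductase was -0.09 (limma adjusted p = 0.874) and no longer called. The same covariate left Ubiquinone Biosynthesis at -0.82 (limma adjusted p = 0.0393), and its own relation with Lactobacillus had an r of -0.02 and a rho of 0.001 (permutation p = 0.909 and 0.995, adjusted 0.909 and 0.995). What Lactobacillus contributes to the reductase difference was not tested, since the tables used here do not pair the genus of a read with its function. The relation does not show that Lactobacillus carries a cytochrome bc1 complex, as the genes of the subsystem are not listed.

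**Figure D3:**
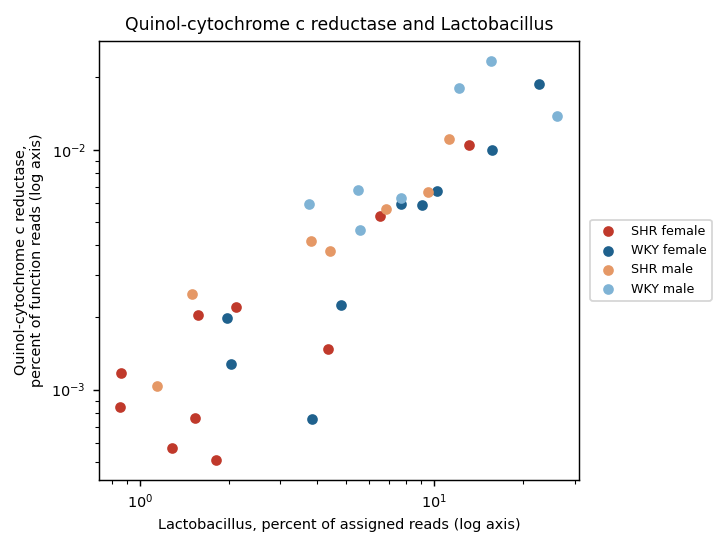
Share of Lactobacillus among assigned reads (horizontal log axis, percent) against the share of the cytochrome c reductase complexes among function reads (vertical log axis, percent), 1 point per rat, coloured by group. Points of all 4 groups lie along a common rising band, with SHR females mostly at its lower left.

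The Bacteroidales genera and Desulfovibrio, a sulfate reducer, ran against the reductase. Its Pearson r was -0.66 with Bacteroides, -0.64 with Parabacteroides, -0.62 with Muribaculum and -0.60 with Desulfovibrio, each with a permutation p adjusted over the 16 relations of at most 0.00032. The matching rho values were -0.65, -0.70, -0.72 and -0.68 (adjusted permutation p of at most 0.000544), and without the 2 farthest rats r was -0.64, -0.71, -0.69 and -0.64. Bifidobacterium gave an r of 0.39 (permutation p = 0.00787, adjusted 0.021), with a rho of 0.39 whose adjusted permutation p was 0.0688. The Bifidobacterium call was lost without removal of group means and without the 3 shallowest libraries (adjusted permutation p of 0.106 and 0.115). Akkermansia, at 0.35, and Escherichia, at 0.12, did not pass, though without removal of group means Akkermansia did, at 0.44 (adjusted permutation p of 0.0216). All genus shares are parts of 1 total, so the relations are not independent of each other.

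Ubiquinone Biosynthesis had no relation of that size with any of the 8 genera. Its relation with Escherichia, a genus known to make ubiquinone, had an r of -0.09 and a rho of -0.05 (permutation p = 0.638 and 0.8, adjusted 0.785 and 0.914). Escherichia itself took 0.0929 ± 0.0645% of assigned reads in SHR females (SD, n = 10) and 0.104 ± 0.0515% in WKY females (SD, n = 9). It took 0.0481 ± 0.00780% in SHR males and 0.0722 ± 0.0437% in WKY males (SD, n = 7 each). Bifidobacterium gave an r of 0.46 (permutation p = 0.0216, adjusted 0.0494), but the adjusted permutation p of its rho of 0.40 was 0.0855. That r lost its call both without removal of group means and without the 3 shallowest libraries (adjusted permutation p of 0.106 and 0.101). The remaining 6 genera lay between -0.28 and 0.20. Without removal of group means, so that strain and sex enter the relation, Parabacteroides at -0.48, Desulfovibrio at -0.46 and Akkermansia at 0.40 passed (adjusted permutation p of 0.0121, 0.016 and 0.0377).

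The 6 WKY rats with the highest Ubiquinone Biosynthesis were of different kinds. WKY females 4, 6 and 7, at 48.6, 70.1 and 40.7 normalized reads, also held the 3 highest futalosine values of their group, 30.3, 22.1 and 17.9. Their reductase values were low, at 6.38, 7.09 and 2.44. WKY males 5 and 6, at 46.2 and 60.9 normalized reads of Ubiquinone Biosynthesis, had no futalosine read and the highest reductase values of their group, 71.7 and 55.0. WKY male 7, at 41.1, had the highest futalosine value of its group, 17.9, and the lowest reductase value, 14.2. High ubiquinone values thus came with high futalosine and lower reductase reads in 4 of the 6 rats and with the reverse in 2.

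Over all 33 rats the reductase ran against 3 of the 4 menaquinone subsystems, and the 6-naphthoate subsystem was left out of these pairs for its few reads. With group means removed, its Pearson r was -0.67 with the futalosine route, -0.53 with Menaquinone and Phylloquinone Biosynthesis and -0.43 with the 2-naphthoate route. Their permutation p-values, adjusted over 15 pairs, were 0.0006, 0.00829 and 0.0386, and the rho values were -0.64, -0.54 and -0.44 (adjusted permutation p of 0.00165, 0.00669 and 0.0341). Without the 2 rats farthest from the median those r were -0.59, -0.57 and -0.39. The futalosine route moved with the other menaquinone subsystems that were paired, at r of 0.53 with Menaquinone and Phylloquinone Biosynthesis and 0.45 with the 2-naphthoate route (adjusted permutation p of 0.00829 and 0.0255). It also ran with the gjo ubiquinone subsystem at an r of 0.49 (adjusted permutation p of 0.00939). Ubiquinone Biosynthesis and the reductase, the pair lower in SHR, had an r of 0.007 and a rho of -0.009 (permutation p = 0.972 and 0.961, adjusted 0.972 and 0.961).

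The 2-naphthoate route was set against the same 8 genera, being the only one of the 7 with a mean of at least 100 reads. With group means removed it followed Parabacteroides, at a Pearson r of 0.65 and a rho of 0.62 (permutation p = 0.00015 and 0.00026, adjusted over 8 genera 0.0012 and 0.00208). Bacteroides gave an r of 0.50 and Muribaculum 0.44 (adjusted permutation p of 0.0183 and 0.0283), with rho of 0.46 and 0.48 (adjusted permutation p of 0.0272 each). These 3 genera belong to the Bacteroidales, an order whose members make menaquinone. Without the 2 farthest rats r was 0.61, 0.62 and 0.60. Lactobacillus had an r of -0.25, Escherichia -0.18, Akkermansia -0.09, Bifidobacterium -0.06 and Desulfovibrio 0.07, and none of these passed.

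Parabacteroides had higher mean shares in SHR in both sexes, which was not tested here, while the 2-naphthoate route had the higher mean in WKY among females and in SHR among males. Parabacteroides took 2.75 ± 1.81% of assigned reads in SHR females (SD, n = 10) and 0.503 ± 0.266% in WKY females (SD, n = 9). It took 2.69 ± 3.55% in SHR males and 0.282 ± 0.197% in WKY males (SD, n = 7 each). Without removal of group means its r with the 2-naphthoate route was 0.38 (permutation p = 0.0293, adjusted 0.0781). Without the 3 shallowest libraries, SHR females 9 and 10 and SHR male 4, Parabacteroides kept its call (adjusted permutation p of 0.00688), while Bacteroides, at r = 0.46, and Muribaculum, at r = 0.41, had adjusted permutation p-values of 0.064 and 0.0739.

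**Figure D4:**
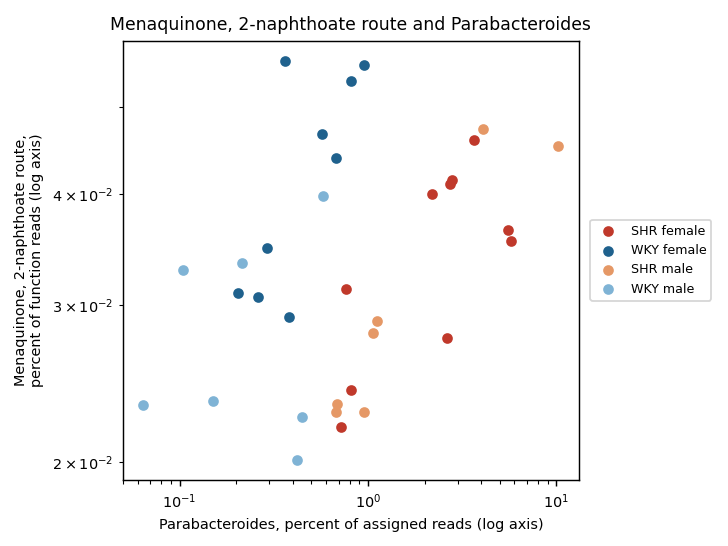
Share of Parabacteroides among assigned reads (horizontal log axis, percent) against the share of the 2-naphthoate menaquinone route among function reads (vertical log axis, percent), 1 point per rat, coloured by group. SHR rats lie mostly to the right of WKY rats, and with group means removed the relation had an r of 0.65.

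Between the sexes, 0 of the 7 quinone subsystems were called by limma in SHR, where 0% of all functions were called, and 0 in WKY, where 0.662% were. At an unadjusted p under 0.05 there was 1 in SHR, where 4.54% of all functions reached it, and 3 in WKY, where 18.3% did. In SHR edgeR and DESeq2 called 0. In WKY edgeR called 0 and DESeq2 1, the 2-naphthoate route, against 36 and 70 of 1024 functions. The sharpest contrast lay in WKY, where that route averaged 130 ± 37.8 normalized reads in females (SD, n = 9) and 84.8 ± 22.5 in males (SD, n = 7). Its log2 fold change of female over male was 0.60 ± 0.20 (SE), with limma adjusted p = 0.0899. The futalosine route averaged 11.8 ± 9.34 in WKY females and 5.29 ± 6.66 in WKY males, a log2 fold change of 1.52 ± 0.61 (SE), with limma adjusted p = 0.154. Without WKY male 7, the WKY male with the highest futalosine value (17.9), both were called, at log2 fold changes of 0.69 and 1.91 (limma adjusted p = 0.0361 and 0.0473). In that fit the calls over all 1057 functions rose from 7 to 74, so the gain was not particular to quinones.

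The reductase had lower values in females than in males of both strains without passing. It averaged 7.58 ± 9.13 normalized reads in SHR females and 15.1 ± 9.71 in SHR males, a log2 difference of -1.16 (limma adjusted p = 0.837). It averaged 17.8 ± 16.7 in WKY females and 34.3 ± 22.3 in WKY males, a log2 difference of -1.18 (limma adjusted p = 0.231). When the strain effect in females was tested against that in males, limma, edgeR and DESeq2 called 0 of the 7, and limma called 0% of all functions. At an unadjusted limma p under 0.05 there were 0 of the 7 and 7.76% of all functions.

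Of the 4 lists of neighbouring functions, the one with calls held the oxidases and reductases at the end of the respiratory chain. It was matched by name and has 9 subsystems, some of which take electrons from reduced quinone, while others, such as Terminal cytochrome C oxidases and those for the biogenesis of cytochrome c oxidases, concern oxidases of cytochrome c. Of the 9, 4 were called lower and 0 higher in SHR averaged over the sexes, against 10.5% lower and 6.72% higher over all functions. Another 4 averaged under 1 read per library in both strains. The median log2 fold change of the 9 was -0.43, against -0.02 over all functions, and it is the value of one of those sparse subsystems, Terminal cytochrome O ubiquinol oxidase, with a mean of 0.118 reads in SHR and 0.75 in WKY. Terminal cytochrome d ubiquinol oxidases, which reduce oxygen at very low pressure, averaged 177 ± 34.4 normalized reads in SHR and 259 ± 104 in WKY (SD, n = 17 and 16). This made -0.48 on the log2 scale (limma adjusted p = 0.00765). Terminal cytochrome oxidases gave -0.47 (limma adjusted p = 0.00895), with values close to those of the cytochrome d subsystem, and the 2 may share reads.

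Nitrate and nitrite ammonification, which reduces nitrate through nitrite to ammonia, averaged 128 ± 25.1 normalized reads in SHR and 174 ± 44.4 in WKY, a log2 difference of -0.45 (limma adjusted p = 0.00557). Anaerobic respiratory reductases averaged 433 ± 82.8 in SHR and 560 ± 143 in WKY, a log2 difference of -0.38 (limma adjusted p = 0.012). In each of the 4, 16 of 17 SHR rats lay below the WKY median. Terminal cytochrome O ubiquinol oxidase did not pass (limma adjusted p = 0.0775), and Terminal cytochrome C oxidases had 0.02 (limma adjusted p = 0.982). With the Lactobacillus covariate only the nitrate subsystem of these 4 kept its call, at -0.63 (limma adjusted p = 0.000698). With total reads as covariate it was the one that lost it, at -0.30 (limma adjusted p = 0.0717).

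Of the steps that feed the quinone pool, limma, edgeR and DESeq2 called 0 of 3 subsystems of chorismate supply, 0 of 5 of isoprenoid supply and 0 of 6 of electron entry in that comparison, in which limma called 17.2% of all functions. At an unadjusted limma p under 0.05 there were 0, 2 and 0 of them, against 31.6% of all functions. Within electron entry, the plant mitochondrial and the plastidial versions of complex I averaged at most 0.25 reads per library in either strain. Formate dehydrogenase averaged 1.94 reads in SHR and 2.38 in WKY, so these sparse subsystems could hardly be called. Chorismate Synthesis, which makes the common precursor of both quinones, stood at 0.04 on the log2 scale (limma adjusted p = 0.704). Polyprenyl Diphosphate Biosynthesis, which makes the quinone side chain, had -0.17 (limma adjusted p = 0.131), and with total reads as covariate it was called lower, at -0.30 (limma adjusted p = 0.0093). That covariate also called 3 others higher in SHR, the common aromatic pathway to chorismate at 0.21, the phenylalanine and tyrosine branches at 0.30 and the sodium-pumping NADH-quinone oxidoreductase group at 0.36 (limma adjusted p of 0.0355, 0.0275 and 0.0475). Respiratory Complex I, which loads electrons from NADH onto quinone, had 0.02 (limma adjusted p = 0.989), and Succinate dehydrogenase, which loads them from succinate, had -0.18 (limma adjusted p = 0.273).

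**Figure D5:**
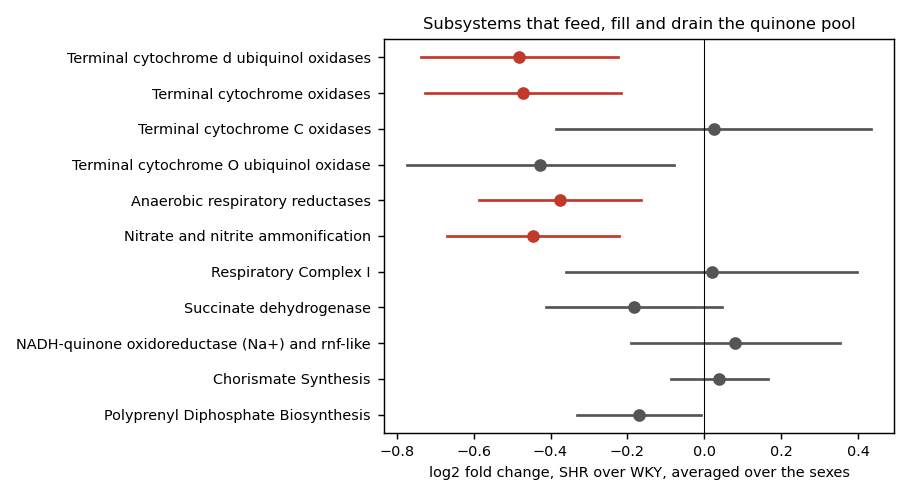
Log2 fold changes of SHR over WKY averaged over the sexes (horizontal axis) with 95% intervals from limma, for 11 of the 23 subsystems in the 4 lists of neighbouring functions. The subsystems not shown did not pass. Red points passed the adjusted p threshold of 0.05. The 4 red points, between -0.48 and -0.38, are oxidases and reductases at the end of the respiratory chain.

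The authors' deposited table of a general model lists 148 functions, among them both subsystems that were lower in SHR here. The authors' deposited table gives the reductase a log2 fold change of 2.35 with an adjusted p of 0.00376. For Ubiquinone Biosynthesis the authors' deposited table gives 0.985 with an adjusted p of 0.00942. The authors' deposited table does not name the groups behind these signs. Between SHR females and WKY males, which differ in both strain and sex, the log2 ratio of means was -2.18 for the reductase and -0.99 for Ubiquinone Biosynthesis. The limma log2 fold changes of SHR over WKY averaged over the sexes were -1.14 and -0.78. Which comparison the authors' values belong to is therefore not known here. The authors' deposited tables of the female and the male model, with 85 and 16 functions, list none of the 7. The highest adjusted p in the authors' deposited tables is 0.00968 in the general, 0.00955 in the female and 0.00589 in the male model, so they hold calls at a stricter level than the 0.05 used here.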

How the data were processed

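Cecal DNA was taken up with a PowerSoil bead kit and sequenced from Nextera libraries, per the labels' protocols. The submitters' processing notes name Trimmomatic 0.36, cutadapt 2.6, FastQC 0.11.5, DESeq2 and the rat build Rnor_6.0. For functions and taxa, tool and database are not given in these sources. The deposited function values are a signal: reads per subsystem over a size factor of the library. Dividing by the smallest step gave whole reads for 100% of values, with a tolerance of 0.01 read. The authors deposited genera as a percent of all assigned reads, while the design foresaw a percent of bacterial reads. The authors also deposited log2 fold changes with p-value and adjusted p of their own models, and other deposited tables were not used here.

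All 1057 functions were tested with limma 3.58.1 (R 4.3.3, variance trend, robust) on log2(normalized value + 1), with 4 group means over 33 rats. Tests were 2-sided, and calls were made at 0.05 after Benjamini-Hochberg adjustment over the whole table. Subsystems named were the 7 chosen by name, the members of 4 lists of neighbouring functions matched by name, and the 3 functions most like the 2-naphthoate route. Members, lists and tests were chosen with earlier results of these data known. "Isoprenoinds for Quinones", as the table spells it, escaped the list search and was added after the values were seen. Genus shares were related to subsystems on the log2 scale with group means removed and permuted within groups. Each library is 1 rat; the p-values rest on variation among rats and would be too small if rats shared cages. Reads carry no molecular identifiers, so intervals and the limit set by a count of 0 (3 reads) cover counting error only. The alternatives were pseudocounts of 0.5 and 5, a low filter, equal totals, edgeR 4.0.16, DESeq2 1.42.0, plain limma, only the compared groups, no shallow libraries, covariates and each rat left out. The covariate on Lactobacillus was added after seeing the data. The fits were also run on simulated data with the same spread between rats for every function. That spread was smaller than those of the reductase, the futalosine route, Ubiquinone Biosynthesis and its gjo version, so the run does not cover them. Python 3.11.15, pandas 2.3.3, numpy 2.4.6, scipy 1.17.1 and matplotlib 3.10.9 were used.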

Additional observations from a re-analysis of the deposited data

Results flagged for a closer look

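Of 28 sets of values (7 quinone subsystems in 4 groups), 2 held a rat far from the others of its group by Dixon's test. Chance marks about 1 in 20 sets of normally distributed values, which normalized reads on a linear scale need not be. Both flags concern the Ubiquinone Menaquinone-cytochrome c reductase complexes. SHR female 9 had 30.7 normalized reads, while the next SHR female had 15.7, and the value rests on 10 reads in the shallowest library. WKY female 9 had 55.8 normalized reads, while the next WKY female had 28.5, and the value rests on 77 reads. Lactobacillus took 13.2% of assigned reads in SHR female 9 and 22.7% in WKY female 9, the highest share of each group, and its part in these values was not tested.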

How the results depend on the processing

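In 33 fits that each left out 1 rat, the quinone calls ranged from 0 to 1 in the strain comparison in females (gained without SHR female 9), from 1 to 2 averaged over the sexes and from 0 to 2 between the sexes of WKY (gained without WKY male 7). Calls over all functions between the strains ranged from 61 to 129 in females, from 10 to 81 in males and from 135 to 215 averaged. They ranged from 2 to 74 between the sexes of WKY. Between the sexes of SHR (without SHR male 1) and for strain by sex (without WKY male 2) they ranged from 0 to 1. The male count moved by over 1.5 times without SHR male 1 or 2 or WKY male 1, 2, 5, 6 or 7. The WKY count did so without SHR female 1, SHR male 4, WKY female 1, 6 or 9, or WKY male 1, 2, 3, 4, 5 or 7. Small fold changes crossed 0, with ranges of -0.31 to 0.033 (Menaquinone and Phylloquinone Biosynthesis, males), -0.13 to 0.13 (6-naphthoate, males), -0.14 to 0.050 (gjo, averaged), -0.31 to 0.050 (Ubiquinone Biosynthesis, sexes of WKY) and -0.21 to 0.18 (gjo, sexes of WKY).

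Under other settings, DESeq2, no shallow libraries and the total-reads covariate each called 1 quinone subsystem in females (Ubiquinone Biosynthesis, the reductase and the reductase), the Lactobacillus covariate 1 averaged, and DESeq2 1 between the sexes of WKY. Calls over all functions in females were 132 with DESeq2, 150 without the 3 shallowest libraries and 231 with total reads. In males they were 50 with the filter, 83 with DESeq2, 2 with only the compared groups, 94 with total reads and 17 with Lactobacillus. Averaged, they were 280 with total reads and 82 with Lactobacillus. Between the sexes of WKY they were 23 with the filter, 36 with edgeR, 70 with DESeq2, 1 with only the compared groups, 12 without the shallowest, 22 with total reads and 15 with Lactobacillus, and for strain by sex 3 with total reads.

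None of the following fold changes was called under the setting named. The futalosine route in females turned to 0.20 without the shallowest and 0.63 with total reads, and averaged to -0.55 with Lactobacillus. Menaquinone and Phylloquinone Biosynthesis turned with total reads to 0.15 in females, 0.12 in males and 0.13 averaged, and to 0.033 in males without the shallowest. The 2-naphthoate route turned to 0.085 and gjo to 0.12, averaged, with total reads, and gjo to -0.036 between the sexes of WKY with Lactobacillus. The 6-naphthoate subsystem in males turned to -0.015 with a pseudocount of 5, -0.12 with edgeR, -0.14 with DESeq2 and -0.11 without the shallowest. The reductase in females turned to 0.088 with Lactobacillus.

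Of the 2-naphthoate route's 3 genus relations, 1 passed without the shallowest. Weak r changed sign without centring (Akkermansia 0.018, Escherichia 0.058 and Desulfovibrio -0.011 for the 2-naphthoate route, Lactobacillus 0.26 and Escherichia 0.028 for Ubiquinone Biosynthesis, Escherichia -0.016 for the reductase) or without the shallowest (Akkermansia 0.013, and Bacteroides 0.029 for Ubiquinone Biosynthesis). The cause of these changes was not tested. Depth limits the 6-naphthoate, futalosine and reductase subsystems, with as few as 0 or 1 read in a library. No paired analysis was possible because the labels give no number that rats of different groups share.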

Other observations

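The functions whose levels ran most like the 2-naphthoate menaquinone route over the 33 rats, after group means were removed, were Periplasmic Stress Response (Pearson r of 0.84), a conserved gene cluster that the table names by a code only (0.84) and the Twin-arginine translocation system (0.79). The twin-arginine system exports folded proteins, among them many that carry redox cofactors. They were picked for their likeness among all other functions, so no test was made.

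Isoprenoinds for Quinones, the subsystem of quinone side chains, averaged 211 ± 15.0 normalized reads in SHR and 222 ± 15.9 in WKY (SD, n = 17 and 16). Its log2 fold change averaged over the sexes was -0.06 (limma adjusted p = 0.335), and it was added after the values were seen.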
